A study of Mus musculus with 14 samples.

Results

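The change in gene expression between embryonic days E14.5 and E18.5 that bladder epithelium and urethral epithelium of female mouse embryos share was measured in 14 of the 14 RNA-seq libraries of the study. All embryos were wild-type CD-1 mice, an outbred stock, and received no treatment. The groups were E14.5 bladder epithelium (n = 4), E14.5 urethral epithelium (n = 4), E18.5 bladder epithelium (n = 3) and E18.5 urethral epithelium (n = 3). Each library came from pooled female littermates, and each litter gave a bladder pool and a urethra pool. The epithelium had been peeled from the mesenchyme by hand after trypsin digestion, so any mesenchyme left on it was sequenced with it. A gene was counted as moving the same way when its adjusted p was under 0.05 in bladder and in urethra separately, with the same sign; 2624 of 18286 genes tested met this.

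The bladder and the urethra are lined by epithelium of endodermal origin. In the bladder it becomes urothelium, a barrier with basal, intermediate and superficial umbrella cells that make uroplakins, and in the urethra it becomes a mixed urothelial and stratified lining. Across many fetal organs, growth genes held by the Lin28 and let-7 circuit decline as tissues mature: let-7 microRNAs bind matching sites in the 3′ untranslated region (3′ UTR) of mRNAs such as Hmga2 and lower their level, and Lin28 proteins block let-7 maturation. Late gestation is also the time at which fetal glucocorticoid levels are known to rise and innate immune genes are known to become more active in barrier tissues.

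Library totals ran from 21101269 to 36810672 counts, and 21966 to 24258 genes were detected per library. The 7 pan-epithelial markers (such as Epcam and Cdh1) were present in every library, with a summed level of 4020 to 4640 CPM (counts scaled to a common library size) in E14.5 bladder, 2650 to 3420 in E18.5 bladder, 1660 to 3660 in E14.5 urethra and 3580 to 4170 in E18.5 urethra. The 15 mesenchyme markers moved with stage: their summed level was 895 to 4190 CPM in E14.5 bladder and 19300 to 29400 in E18.5 bladder, against 2040 to 5940 in E14.5 urethra and 4320 to 5170 in E18.5 urethra. Higher mesenchyme markers in a bulk library can mean more such cells or more RNA per cell, and these cannot be told apart. E14.5 replicate 1 stood apart in both tissues. Among the 2624 genes, it was the E14.5 library nearest the E18.5 mean for 72.7% in bladder and for 56.9% in urethra, where the other E14.5 replicates held 4.57% to 18.1% and 4.73% to 22.1%. The stages were deposited as separate tables and came from different litters, so stage and anything else that differed between those collections cannot be told apart. Because each litter supplied both pools, the tissues are not independent tests of the stage change, and p-values measure the spread between litter pools.

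**Figure D1:**
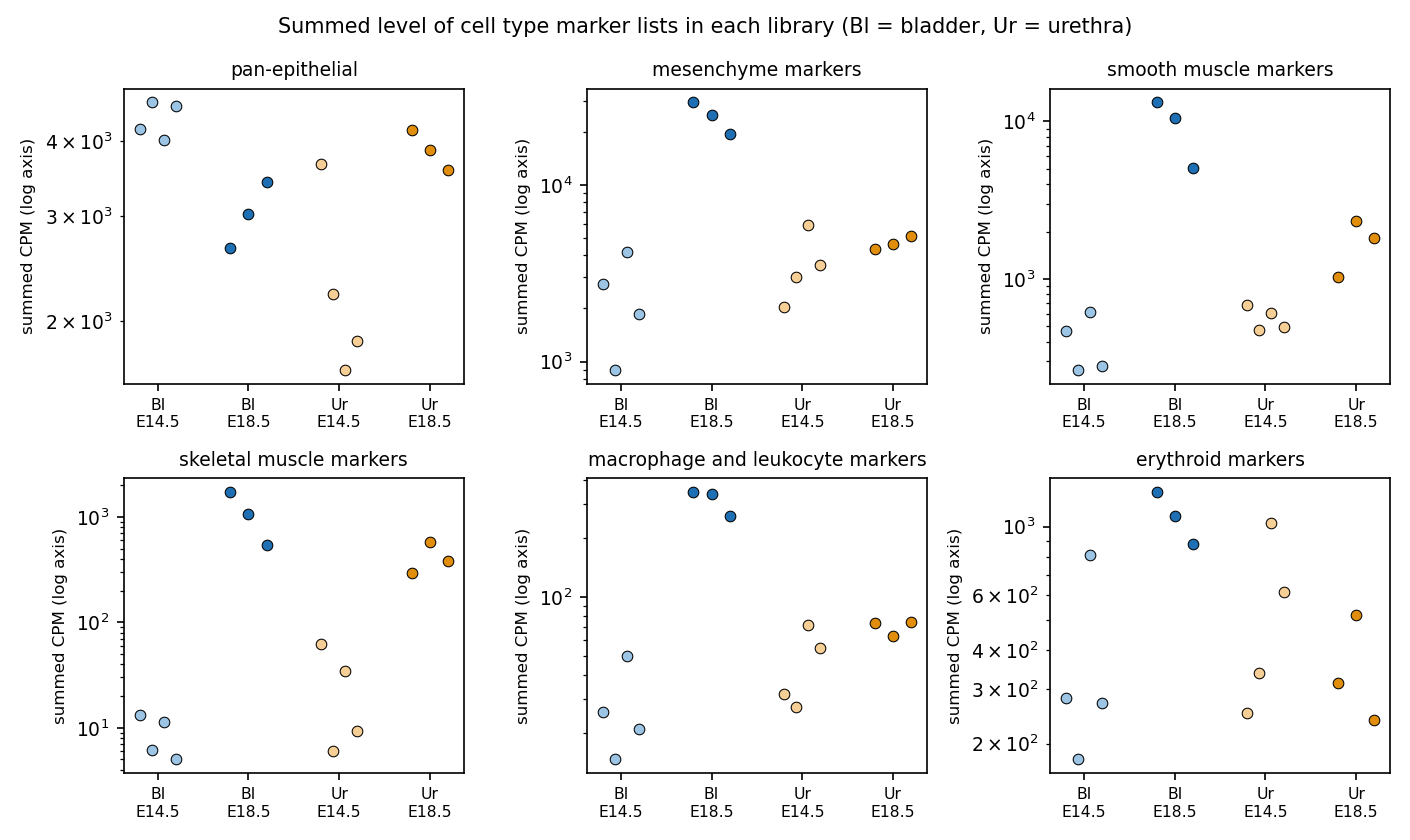
Summed CPM (log axes) of 6 cell type marker lists in each of the 14 libraries, one point per library, for bladder (Bl) and urethra (Ur) at both stages. Mesenchyme and smooth muscle markers were highest in the 3 E18.5 bladder libraries, and the summed skeletal muscle level was higher at E18.5 than at E14.5 in both tissues, which in bladder came mostly from Acta1 and Ckm.

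The first comparison asked which genes differed between the mean of both E18.5 groups and the mean of both E14.5 groups. In this joint contrast 4342 genes were higher at E18.5 (23.7% of those tested) and 4123 were lower (22.5%). In bladder alone 3642 genes were higher (19.9%) and 3723 lower (20.4%), and in urethra alone 3156 were higher (17.3%) and 2875 lower (15.7%). Of the 8465 genes called jointly (46.3%), 5170 passed in 1 tissue only, 628 passed in neither, 43 passed in both with opposite signs, and the remaining 2624 moved the same way.

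The shared genes split into 1149 higher at E18.5 in both tissues (6.28% of genes tested) and 1475 lower in both (8.07%). They made up 35.6% of the bladder calls and 43.5% of the urethra calls. Genes called in both tissues with opposite signs numbered 402 (2.2%). The shared increases were the larger: their median log2 fold change was 1.61 in bladder and 1.34 in urethra, against -0.60 and -0.53 for the shared decreases. At least a 2-fold change in both tissues was reached by 657 of the 1149 and by 143 of the 1475, and at least a 4-fold change by 306 and by 34. Libraries of the stages did not overlap in either tissue for 1042 of the 1149 (8.0% of all genes tested were so separated upward) and for 1326 of the 1475 (9.58% downward).

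The counts rest on how libraries are scaled and on which are used. Without both E14.5 replicate 1 libraries, 1641 genes were higher and 1762 lower in both tissues, and 1085 of the 1149 and 1406 of the 1475 were among them. This setting was chosen after seeing the data. Replicate 1 lay nearest the E18.5 mean for most same-way genes, so stage gaps widen without it. Larger counts in this setting, here and below, are therefore no support. With libraries scaled on the 7 pan-epithelial genes, which shifted the all-gene median to 0.54 in bladder and -0.76 in urethra on the log2 scale, 640 genes were higher and 180 lower in both. With the mean log2 level of the mesenchyme markers as a covariate, 136 were higher and 209 lower. In that fit 189 were higher and 331 lower in bladder, and 3506 higher and 3107 lower in urethra. The covariate did not overlap between stages in bladder (3.58 to 5.84 at E14.5, 7.33 to 8.07 at E18.5). It did overlap in urethra. Stage and covariate are therefore closely tied in bladder, and this fit can hardly tell them apart there. The same limit holds wherever this covariate is used below. The count of genes with opposite signs, 402, was 819, 1708 and 20 in these fits, and 190 (without urethra E18.5 replicate 1) to 901 with 1 library left out. The mesenchyme's part in the shared counts was not tested beyond these fits.

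**Figure D2:**
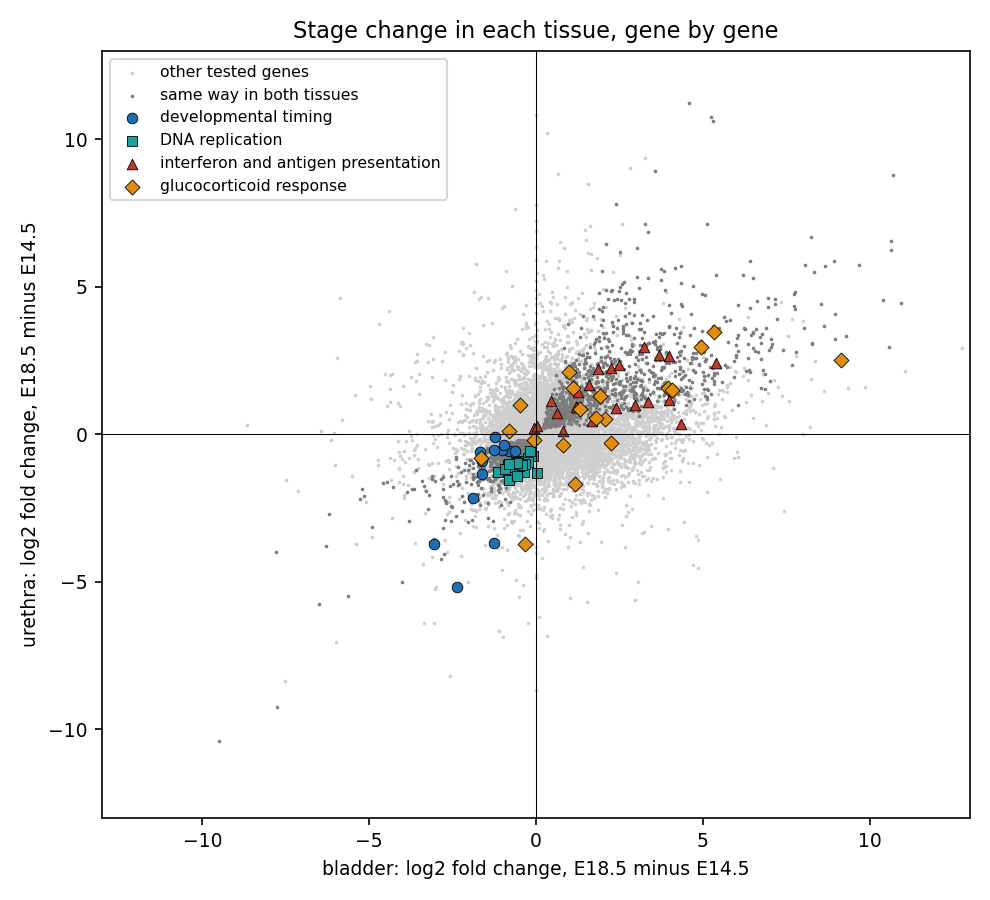
Log2 fold change from E14.5 to E18.5 in bladder (x axis) and in urethra (y axis) for each of the 18286 genes tested, with 2624 same-way genes in dark grey, other genes in light grey and 4 gene lists in colour. Developmental timing and DNA replication genes lie mostly in the lower left, interferon and antigen presentation genes mostly in the upper right.

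Developmental timing genes fell together. All 13 tested members of the list (Lin28a was too low to test) were lower in the joint contrast, and 10 of 13 were lower in both tissues, with a median log2 fold change of -1.14 jointly, beside 0.02 over the genes tested. The list includes Hmga2, a chromatin architecture protein of fetal growth; Igf2bp1, Igf2bp2 and Igf2bp3, which bind and stabilise fetal mRNAs; Trim71, a let-7 target that acts in early embryos; and Lin28b itself. All 13 were also lower jointly without both E14.5 replicate 1 libraries and with pan-epithelial scaling. The number lower in both tissues was then 12 and 5, and it was 4 with the mesenchyme covariate.

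Hmga2 (chr10:120361275-120476469, GRCm38, - strand) had the largest fall of the list when the smaller of its changes in the tissues is compared. In bladder its levels were 34.8, 51.9, 125 and 71.5 CPM at E14.5 and 8.67, 11.01 and 5.41 CPM at E18.5. In urethra they were 69.5, 232, 367 and 228 CPM at E14.5 and 15.4, 16.8 and 18.6 CPM at E18.5. Every E18.5 library was below every E14.5 library, and replicate 1 was the lowest E14.5 library in both tissues. The log2 fold change was -3.07 (SE 0.54, adjusted p = 0.000705) in bladder and -3.72 (SE 0.55, adjusted p = 0.000532) in urethra.

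Igf2bp3 (chr6:49085223-49214957, GRCm38) was 256, 396, 391 and 395 CPM at E14.5 and 102, 125 and 121 CPM at E18.5 in bladder. The urethral libraries held 200, 199, 211 and 180 CPM at E14.5 and 108, 90.1 and 121 CPM at E18.5. The stages did not overlap in either tissue. The log2 fold change was -1.63 (SE 0.16, adjusted p = 1.32e-05) in bladder and -0.896 (SE 0.15, adjusted p = 0.00117) in urethra, and the tissues differed in size (interaction adjusted p = 0.0261). Igf2bp1 changed by -1.63 (SE 0.22, adjusted p = 0.000131) and -1.36 (SE 0.22, adjusted p = 0.000886), and Igf2bp2 by -1.03 (SE 0.09, adjusted p = 8.81e-06) and -0.52 (SE 0.09, adjusted p = 0.00121), in bladder and urethra respectively.

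Trim71 changed by -1.900 (SE 0.40, adjusted p = 0.00234) in bladder and -2.16 (SE 0.42, adjusted p = 0.00238) in urethra; without urethra E14.5 replicate 3, the highest of its group, the urethra value was -1.51. Lin28b was low throughout, at 0.942 to 1.61 CPM at E14.5 and 0.197 to 0.648 CPM at E18.5 in bladder and 1.28 to 3.77 CPM at E14.5 and 0.171 to 0.235 CPM at E18.5 in urethra. Its log2 fold change was -3.69 (SE 0.49, adjusted p = 0.0002901) in urethra and -1.27 (SE 0.45, adjusted p = 0.0361) in bladder. The bladder call was lost in 4 of the 7 fits that left out a bladder library.

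All 13 tested members carry a let-7 seed match in the longest annotated 3′ UTR, compared with 10.5% of the 14897 tested genes with an annotated 3′ UTR. The list was drawn from genes known as let-7 targets, so this share describes the list and supports nothing about the data. The mature let-7a and 1 site from each of 4 members are printed to show the match that members of this list carry. Capitals mark the seed (bases 2 to 8) in the microRNA and the 7 matching letters CTACCTC in the mRNA; 11 mature RefSeq entries share this seed. The microRNA is written 5′ to 3′ in RNA letters from RefSeq (GRCm38.p6), and the sites 5′ to 3′ in the mRNA sense from GENCODE vM21 (GRCm38).
mmu-let-7a-5p: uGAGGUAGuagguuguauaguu
Hmga2, chr10:120364224-120364246, - strand: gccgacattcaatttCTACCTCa
Lin28b, chr10:45381022-45381044, - strand: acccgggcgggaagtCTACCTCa
Igf2bp1, chr11:95961778-95961800, - strand: gctgtgcgaagtaaaCTACCTCa
Trim71, chr9:114512472-114512494, - strand: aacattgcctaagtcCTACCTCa

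The microRNA itself was not measured, since these are poly(A) libraries of long RNA. Across all genes with an annotated 3′ UTR, the median joint log2 fold change was 0.03 for 13334 genes with no site, -0.05 for 1373 with 1 site, -0.16 for 162 with 2 sites and -0.36 for 28 with 3 or more. In bladder these medians were -0.02, -0.10, -0.26 and -0.48, and in urethra 0.01, -0.05, -0.22 and -0.38. Of the 28, 5 are members of the timing list. Longer 3′ UTRs hold more sites by length alone (median 1067 bases with none and 4459 with 3 or more), and the median joint change also fell over 5 equal classes of gene length, from 0.13 in the shortest to -0.10 in the longest. Among 3′ UTRs of at least 4000 bases the joint median was -0.18 for 365 genes with a site and -0.09 for 844 without. With the list left out, 15.2% of these genes with a site were lower in both tissues, against 12.1% of those without. The shares higher in both were 2.49% and 4.27%. In each class of shorter 3′ UTRs both shares were larger with a site. From 2000 to under 4000 bases, 13.5% against 10.6% were lower in both, and 7.49% against 5.88% were higher. The joint medians there were -0.050 with a site and -0.042 without. From 1000 to under 2000 bases, 11.4% against 9.24% were lower and 7.87% against 7.46% higher. The urethra medians there were 0.03 with a site and -0.02 without. Among 3′ UTRs under 1000 bases the joint medians were 0.05 with a site and 0.08 without. The urethra medians were 0.10 and 0.09, with 10.7% against 7.88% lower in both tissues and 9.2% against 8.24% higher. These are descriptions across genes, with no test.

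**Figure D3:**
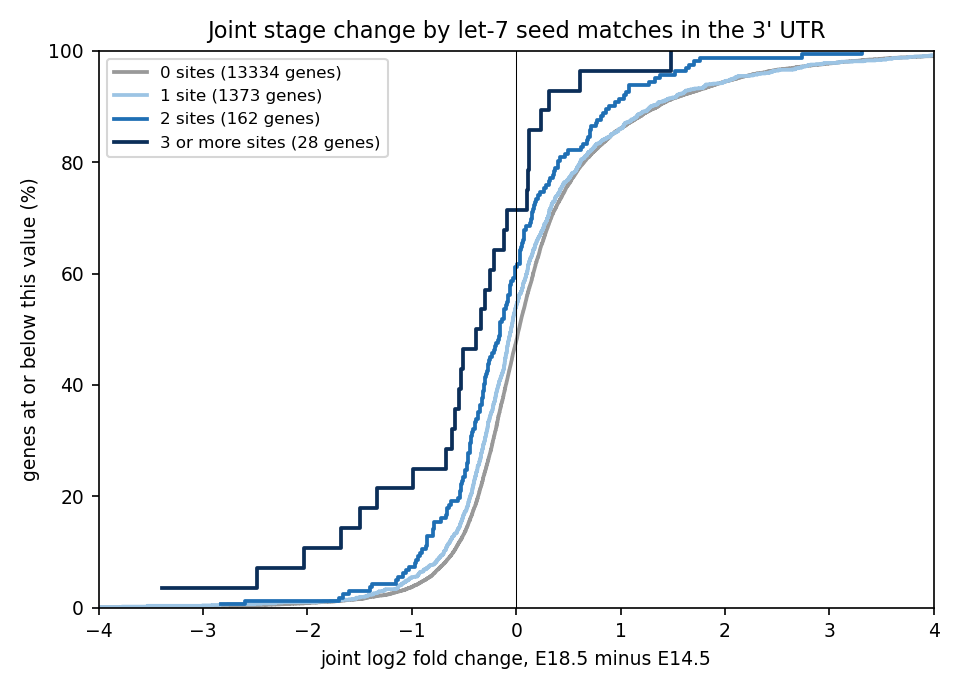
Cumulative share of genes (y axis, %) against joint log2 fold change from E14.5 to E18.5 (x axis) for genes with 0, 1, 2 or at least 3 let-7 seed matches in the longest annotated 3′ UTR. The curve moves left with the number of sites, from a median of 0.03 with none to -0.36 with 3 or more, and 5 of the 28 genes in the last class belong to the timing list.

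The machinery of DNA replication fell in both tissues. All 25 replication genes were lower jointly and 16 of 25 were lower in both tissues, with medians of -0.61 in bladder and -1.06 in urethra. They include the MCM2 to MCM7 helicase (6 of 6 members lower in both), the licensing factors Cdc6 and Cdt1, the leading-strand polymerase Pole, and Chaf1a and Chaf1b, which place histones on new DNA. The joint count was 25 without both E14.5 replicate 1 libraries and 24 with pan-epithelial scaling or the mesenchyme covariate. The count lower in both tissues was 20, 0 and 0 by edgeR in those fits, and 0 and 10 in the last pair at an unadjusted p under 0.05.

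Chaf1a was 92.3, 136, 124 and 130 CPM at E14.5 and 55.1, 69.7 and 63.1 CPM at E18.5 in bladder. In urethra it was 83.7, 104, 113 and 96.9 CPM at E14.5 and 40.9, 42.5 and 48.1 CPM at E18.5. No E18.5 library reached an E14.5 library. The log2 fold change was -0.94 (SE 0.14, adjusted p = 0.000244) in bladder and -1.18 (SE 0.14, adjusted p = 0.000206) in urethra. Mcm2 changed by -0.67 (SE 0.16, adjusted p = 0.00442) and -1.097 (SE 0.16, adjusted p = 0.000482), Cdt1 by -0.79 (SE 0.14, adjusted p = 0.0008696) and -1.12 (SE 0.15, adjusted p = 0.000272), and Pole by -0.58 (SE 0.14, adjusted p = 0.00574) and -1.399 (SE 0.15, adjusted p = 0.000115), each given for bladder and then urethra. The fall of Pole was larger in urethra (interaction adjusted p = 0.0115).

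Mitotic genes were lower jointly in 26 of 26, and in both tissues in 9 of 26: Ccna2, Ccnb1, Aurkb, Bub1b, Kif23, Cenpf, Ube2c, Ttk and Foxm1. The median was -0.33 in bladder and -1.37 in urethra. The joint count was 26 without both E14.5 replicate 1 libraries and with pan-epithelial scaling. The count lower in both by edgeR was 19 and 0 in those fits (0 for the latter also at an unadjusted p under 0.05), 19 without bladder E14.5 replicate 1 and 4 without bladder E14.5 replicate 2. With the mesenchyme covariate 25 were lower jointly and 0 in both tissues by edgeR, the latter also 0 at an unadjusted p under 0.05. Bub1b, a spindle checkpoint kinase, was 132, 185, 161 and 180 CPM at E14.5 and 82.2, 104 and 107 CPM at E18.5 in bladder. The levels in urethra were 98.95, 119, 139 and 112 CPM at E14.5 and 31.9, 33.9 and 45.5 CPM at E18.5. The stages were separated in each tissue. The log2 fold change was -0.75 (SE 0.16, adjusted p = 0.00267) in bladder and -1.66 (SE 0.17, adjusted p = 0.000105) in urethra.

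Foxm1, the transcription factor of the late cell cycle, changed by -0.52 (SE 0.14, adjusted p = 0.00925) and -1.45 (SE 0.14, adjusted p = 9.07e-05), and Cenpf, a kinetochore protein, by -0.72 (SE 0.18, adjusted p = 0.00653) and -1.64 (SE 0.19, adjusted p = 0.000159), in bladder and urethra. With pan-epithelial scaling the bladder value of Foxm1 turned to 0.023. Mki67 and Top2a, both markers of cycling cells, passed in urethra, at -1.49 (SE 0.17, adjusted p = 0.000172) and -1.49 (SE 0.17, adjusted p = 0.0001498). In bladder Mki67 was -0.38 (adjusted p = 0.08601) and Top2a -0.33 (adjusted p = 0.126), and both turned positive there with pan-epithelial scaling (0.16 and 0.22). For Bub1b, Foxm1, Cenpf, Mki67 and Top2a the difference between tissues passed its own test, with interaction adjusted p from 0.00424 to 0.0199.

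Promoters of these genes were searched for the letters of known cell cycle elements. RefSeq promoters (250 bases before to 50 after the start, GRCm38.p6) matched 21 of the 26 mitotic genes, 20 of the 25 replication genes and 12435 of the genes tested; 1 start was used per gene. The cell cycle homology region TTTGAA was present on either strand in 15 of 21 mitotic promoters (71.4%), 3 of 20 replication promoters (15%) and 12.1% of all. The CCAAT box was present in 85.7%, 70% and 38.2%. An E2F site (TTTCCCGC, TTTCGCGC, TTTGCCGC or TTTGGCGC) was present in 4.76%, 40% and 3.80%. All 15 mitotic promoters with TTTGAA also held CCAAT, a pair found in 5.01% of all promoters. Beyond these lists, E2F letters stood in 8.89% of the 1170 promoters of genes lower in both tissues and in 1.95% of the 873 promoters of genes higher in both. TTTGAA stood in 13.6% and 11.8% of these promoters and CCAAT in 42.3% and 34.5%, beside 12.1% and 38.2% of all. Median G and C content was 62.0% and 58.0% in those groups, beside 60.3% for all. A match is a description of these letters only.

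The promoters of the 4 mitotic genes with the smallest joint adjusted p among those that moved the same way and have an entry, and of 2 replication genes with E2F letters, are shown so that the elements present in each can be read. Of the mitotic promoters shown, that of Ccnb1 holds CCAAT but not TTTGAA. Capitals mark the letters of the 3 elements on either strand, each sequence runs 5′ to 3′ in the sense of the gene, and Foxm1 is named without one.
Bub1b, chr2:118597961-118598260, + strand: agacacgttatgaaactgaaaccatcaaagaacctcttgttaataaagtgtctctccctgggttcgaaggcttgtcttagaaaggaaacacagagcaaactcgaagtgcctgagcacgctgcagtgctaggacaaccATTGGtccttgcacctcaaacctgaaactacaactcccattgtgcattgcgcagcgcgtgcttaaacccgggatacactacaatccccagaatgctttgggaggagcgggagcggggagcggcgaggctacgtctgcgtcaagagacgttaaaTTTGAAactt
Cenpf, chr1:189688037-189688336, - strand: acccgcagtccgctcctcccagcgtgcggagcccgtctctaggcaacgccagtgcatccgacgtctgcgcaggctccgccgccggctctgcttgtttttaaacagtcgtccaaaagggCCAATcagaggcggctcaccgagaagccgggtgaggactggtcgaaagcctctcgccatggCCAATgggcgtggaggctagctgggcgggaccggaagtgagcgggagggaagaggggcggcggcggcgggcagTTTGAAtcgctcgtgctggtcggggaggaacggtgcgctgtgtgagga
Ccnb1, chr13:100786437-100786736, - strand: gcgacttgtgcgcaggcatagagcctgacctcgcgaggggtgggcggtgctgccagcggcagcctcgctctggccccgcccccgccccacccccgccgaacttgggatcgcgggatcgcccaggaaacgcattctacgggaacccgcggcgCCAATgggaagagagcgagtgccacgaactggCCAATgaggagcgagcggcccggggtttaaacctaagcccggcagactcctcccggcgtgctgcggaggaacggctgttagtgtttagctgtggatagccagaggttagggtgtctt
Ube2c, chr2:164769679-164769978, + strand: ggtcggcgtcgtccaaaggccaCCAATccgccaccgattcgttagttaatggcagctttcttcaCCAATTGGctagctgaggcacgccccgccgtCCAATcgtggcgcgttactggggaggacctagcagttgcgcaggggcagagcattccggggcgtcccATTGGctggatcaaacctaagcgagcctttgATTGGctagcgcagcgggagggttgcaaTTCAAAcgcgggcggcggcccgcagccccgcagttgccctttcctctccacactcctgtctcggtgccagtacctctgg
Cdt1, chr8:122567765-122568064, + strand: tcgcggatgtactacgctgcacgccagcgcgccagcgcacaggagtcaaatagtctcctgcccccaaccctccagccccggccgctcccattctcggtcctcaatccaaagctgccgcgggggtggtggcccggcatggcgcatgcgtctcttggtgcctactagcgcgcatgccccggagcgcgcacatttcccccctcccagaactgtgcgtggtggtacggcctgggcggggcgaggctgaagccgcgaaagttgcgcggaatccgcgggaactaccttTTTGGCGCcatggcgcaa
Mcm6, chr1:128359656-128359955, - strand: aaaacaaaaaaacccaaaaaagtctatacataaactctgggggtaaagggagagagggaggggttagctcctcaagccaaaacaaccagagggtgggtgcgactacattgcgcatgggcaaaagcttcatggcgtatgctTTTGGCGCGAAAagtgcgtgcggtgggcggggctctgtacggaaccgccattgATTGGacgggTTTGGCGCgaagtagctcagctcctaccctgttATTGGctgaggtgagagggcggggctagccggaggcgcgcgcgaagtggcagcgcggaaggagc

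Most chromatin genes fell with the cell cycle genes. In the joint contrast 14 of 17 were lower and 1 was higher, and 10 of 17 were lower in both tissues. With pan-epithelial scaling 12 were lower jointly and 2 in both tissues, and with the mesenchyme covariate 11 and 1 (8 in both at an unadjusted p under 0.05). Ezh2, the catalytic subunit of Polycomb repressive complex 2, was 123, 164, 151 and 144 CPM at E14.5 and 85.8, 76.8 and 88.5 CPM at E18.5 in bladder. Urethral levels were 113, 153, 154 and 147 CPM at E14.5 and 79.7, 76.03 and 76.04 CPM at E18.5. The stages did not overlap, and the change was of like size in both tissues, -0.798 (SE 0.12, adjusted p = 0.000247) and -0.87 (SE 0.12, adjusted p = 0.000364); the difference between tissues was 0.08 (adjusted p = 0.786). Hells, a remodeller needed for DNA methylation, changed by -0.89 (SE 0.14, adjusted p = 0.000304) and -1.23 (SE 0.14, adjusted p = 0.000157). Dnmt1, the maintenance DNA methyltransferase, changed by -0.96 (SE 0.15, adjusted p = 0.000248) and -1.03 (SE 0.15, adjusted p = 0.000399). Cbx2, a reader of the Polycomb mark, changed by -1.54 (SE 0.25, adjusted p = 0.000366) and -1.24 (SE 0.24, adjusted p = 0.002299). Ezh1, the alternative catalytic subunit, was the 1 member higher jointly, at 0.699 (SE 0.10, adjusted p = 0.000103). It passed in urethra at 1.12 (SE 0.14, adjusted p = 0.000208), and its bladder value was 0.27 (adjusted p = 0.134). In urethra 3 of the 17 members were higher and 10 lower, and in bladder 0 and 13.

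Genes of ribosome production were lower jointly in 15 of 18 and in both tissues in 10 of 18; with pan-epithelial scaling these edgeR counts were 13 and 0, the latter also 0 at an unadjusted p under 0.05, and with the mesenchyme covariate 13 and 1 (11 in both at an unadjusted p under 0.05). Dkc1, the pseudouridine synthase of box H/ACA particles, was 77.3, 85.98, 84.3 and 83.9 CPM at E14.5 and 51.8, 55.96 and 49.1 CPM at E18.5 in bladder. The urethral libraries held 80.2, 94.9, 86.1 and 87.5 CPM at E14.5 and 49.9, 54.4 and 54.3 CPM at E18.5. The spread within groups was small and the stages were separate in both tissues. The change was -0.66 (SE 0.08, adjusted p = 5.30e-05) in bladder and -0.72 (SE 0.08, adjusted p = 0.0001405) in urethra. Its partner Gar1 changed by -0.84 (SE 0.11, adjusted p = 7.26e-05) and -0.57 (SE 0.10, adjusted p = 0.00166).

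Among 18 imprinted genes of the fetal growth network 5 were higher and 5 lower jointly. H19, a maternally expressed fetal transcript, was lower in both tissues, at -1.07 (SE 0.20, adjusted p = 0.00121) in bladder and -1.19 (SE 0.21, adjusted p = 0.00124) in urethra, from 3145 to 6320 CPM at E14.5 and 2031 to 2732 CPM at E18.5 in bladder and 3416 to 4305 CPM at E14.5 and 1599 to 1958 CPM at E18.5 in urethra. Igf2, the neighbouring growth factor gene, was lower in urethra (-1.99, SE 0.27, adjusted p = 0.000293), and in bladder its value was -0.64 (adjusted p = 0.05901). The list as a whole had no common direction, with a joint median of 0.17.

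**Figure D4:**
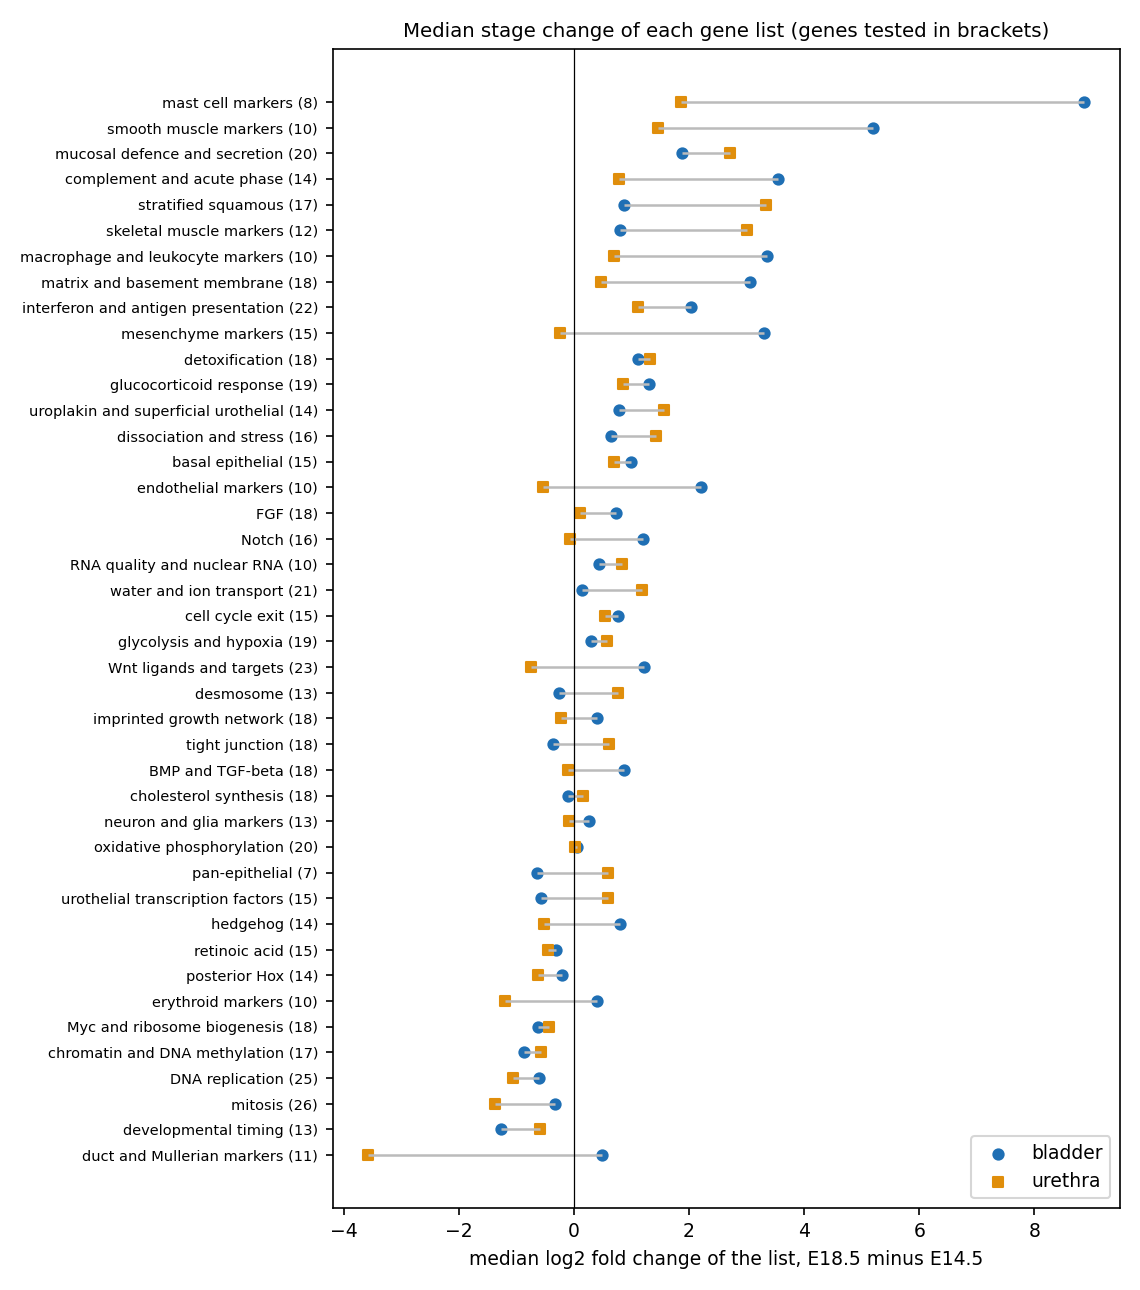
Median log2 fold change from E14.5 to E18.5 (x axis) of each gene list in bladder (circles) and urethra (squares), ordered by the joint median, with the number of genes tested in brackets. The timing, mitosis, replication, chromatin and ribosome lists lie below 0 in both tissues, and mesenchyme, endothelial and Wnt lists have medians of opposite sign in the tissues.

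Interferon-responsive and antigen presentation genes rose together. In the joint contrast 20 of 22 were higher, and 16 of 22 were higher in both tissues, with medians of 2.04 in bladder and 1.11 in urethra. They include interferon regulatory factors (Irf1, Irf7, Irf9), effectors (Isg15, Ifit1, Bst2, Ifitm3), class I molecules (H2-K1, H2-D1, B2m) and peptide loading (Tap2, Tapbp, Psmb8, Psmb9, Psmb10). The joint count was 18 with pan-epithelial scaling and 18 with the mesenchyme covariate, and the count in both tissues was 10 and 6. All 10 tested macrophage and leukocyte markers were higher jointly and 2 in both tissues; their summed level went from 14.7 to 49.9 summed CPM to 260 to 347 in bladder, and from 27.3 to 72 to 63.4 to 74.8 in urethra. In urethra the stages overlapped in that sum. Their part in the increase was not tested.

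Irf1, a transcription factor that switches on class I genes, was 10.4, 8.51, 6.77 and 6.66 CPM at E14.5 and 28.6, 23.4 and 20.9 CPM at E18.5 in bladder. In urethra it was 7.83, 6.11, 7.11 and 6.94 CPM at E14.5 and 22.4, 26.8 and 17.9 CPM at E18.5. All E18.5 libraries lay above all E14.5 libraries, and the change was 1.58 (SE 0.19, adjusted p = 5.32e-05) in bladder and 1.67 (SE 0.19, adjusted p = 0.000159) in urethra. Irf7, which amplifies interferon production, changed by 3.697 (SE 0.40, adjusted p = 2.95e-05) and 2.68 (SE 0.39, adjusted p = 0.000505).

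H2-K1, a class I heavy chain, was 21.1, 8.54, 5.8 and 6.32 CPM at E14.5 and 55.04, 59.1 and 34.3 CPM at E18.5 in bladder. The levels in urethra were 10.7, 4.26, 5.302 and 6.03 CPM at E14.5 and 28.98, 41.6 and 21.98 CPM at E18.5. Replicate 1 was the highest E14.5 library in both tissues. The change was 2.24 (SE 0.44, adjusted p = 0.00139) and 2.23 (SE 0.44, adjusted p = 0.00261); without bladder E14.5 replicate 1 the bladder value was 2.84. H2-D1 changed by 1.84 (SE 0.43, adjusted p = 0.00412) and 2.22 (SE 0.43, adjusted p = 0.00239). Reads of class I genes may be divided among close copies, and the counting of such reads is not given in the sources used here.

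B2m, the class I light chain, rose more in bladder, 1.66 (SE 0.12, adjusted p = 2.37e-06), than in urethra, 0.46 (SE 0.12, adjusted p = 0.00982) (interaction adjusted p = 0.000844); with pan-epithelial scaling its urethra value was -0.28. Ifitm3 rose by 3.98 (SE 0.32, adjusted p = 4.21e-06) and 1.15 (SE 0.29, adjusted p = 0.00905), and Isg15 by 5.38 (SE 0.43, adjusted p = 4.77e-06) and 2.43 (SE 0.43, adjusted p = 0.0013), in each case more in bladder by the interaction test (adjusted p = 0.00118 and 0.00626). Isg15 stayed low in urethra, at 0.0803 to 0.315 CPM at E14.5 and 0.684 to 1.12 CPM at E18.5.

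Genes that respond to glucocorticoids rose in both tissues in 10 of 19, and 12 were higher and 1 lower jointly. Of all genes tested, 6.28% were higher in both tissues and 23.7% higher jointly. Another 2 members were called with opposite signs, beside 2.2% of all genes. In bladder 14 members were higher and 1 lower, and in urethra 11 and 2. The 10 higher in both tissues were Per1, Zbtb16, Sgk1, Dusp1, Klf9, Klf15, Cebpd, Hsd11b1, Gadd45g and Sult1a1. With pan-epithelial scaling or the mesenchyme covariate, 5 and 6 were higher in both tissues, and 12 and 11 jointly. Several of these genes also answer other signals, and hormone was not measured.

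Klf9, a zinc finger factor induced by the glucocorticoid receptor, was 25.7, 18.7, 16.5 and 16.04 CPM at E14.5 and 79.5, 71.7 and 66.6 CPM at E18.5 in bladder. Urethral levels were 27.9, 21.2, 13.1 and 17.1 CPM at E14.5 and 44.1, 41.4 and 60.3 CPM at E18.5. The stages did not overlap. The change was 1.91 (SE 0.23, adjusted p = 6.03e-05) and 1.296 (SE 0.23, adjusted p = 0.00149). Sgk1, a kinase that raises sodium channel activity, rose more in urethra (2.12, SE 0.15, adjusted p = 7.69e-06) than in bladder (0.98, SE 0.15, adjusted p = 0.000243), with an interaction adjusted p of 0.00326. Cebpd, an acute phase transcription factor, rose more in bladder (4.08, SE 0.25, adjusted p = 9.27e-07) than in urethra (1.504, SE 0.23, adjusted p = 0.000663), with 0.000578.

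Per1, a clock gene with a glucocorticoid response element, changed by 1.31 (SE 0.16, adjusted p = 5.92e-05) and 0.85 (SE 0.16, adjusted p = 0.00183). Zbtb16 changed by 4.96 (SE 0.73, adjusted p = 0.000205) and 2.95 (SE 0.73, adjusted p = 0.00867); without bladder E14.5 replicate 1 the bladder value was 6.23, and without urethra E18.5 replicate 3 the urethra value was 2.31. Fkbp5 and Tsc22d3, which are widely used as glucocorticoid targets, did not follow the same pattern. Fkbp5 was 0.82 (SE 0.19, adjusted p = 0.00459) in bladder and -0.36 in urethra (adjusted p = 0.181), and Tsc22d3 was 2.25 (SE 0.25, adjusted p = 3.49e-05) and -0.31 (adjusted p = 0.372). The interaction adjusted p was 0.0104 and 0.000815.

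Of 15 genes of a cell cycle exit list, which also holds the D-type cyclins Ccnd1, Ccnd2 and Ccnd3, 9 were higher jointly. The 1 member lower jointly was the cyclin Ccnd3, at -0.32. In both tissues 4 were higher: Cdkn1a, Cdkn1b, Rbl2 and Gadd45b. Cdkn1b, the p27 inhibitor of cyclin-dependent kinases, was 66.95, 58.1, 48.8 and 48.9 CPM at E14.5 and 124, 119 and 145 CPM at E18.5 in bladder. The urethral libraries held 50.3, 50.9, 49.7 and 62.3 CPM at E14.5 and 71.6, 91.7 and 77.8 CPM at E18.5. The stages were separate, and the change was 1.22 (SE 0.13, adjusted p = 2.88e-05) in bladder and 0.59 (SE 0.13, adjusted p = 0.00496) in urethra; with pan-epithelial scaling the urethra value was -0.18. Cdkn1a, the p21 inhibitor, changed by 2.04 (SE 0.39, adjusted p = 0.00123) and 1.57 (SE 0.39, adjusted p = 0.00842). In urethra its E14.5 replicate 1 was 94.6 CPM against 30.3 to 34.8 in the others. Gadd45b, a growth arrest and stress gene, changed by 3.899 (SE 0.50, adjusted p = 8.46e-05) and 2.41 (SE 0.45, adjusted p = 0.00181).

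**Figure D5:**
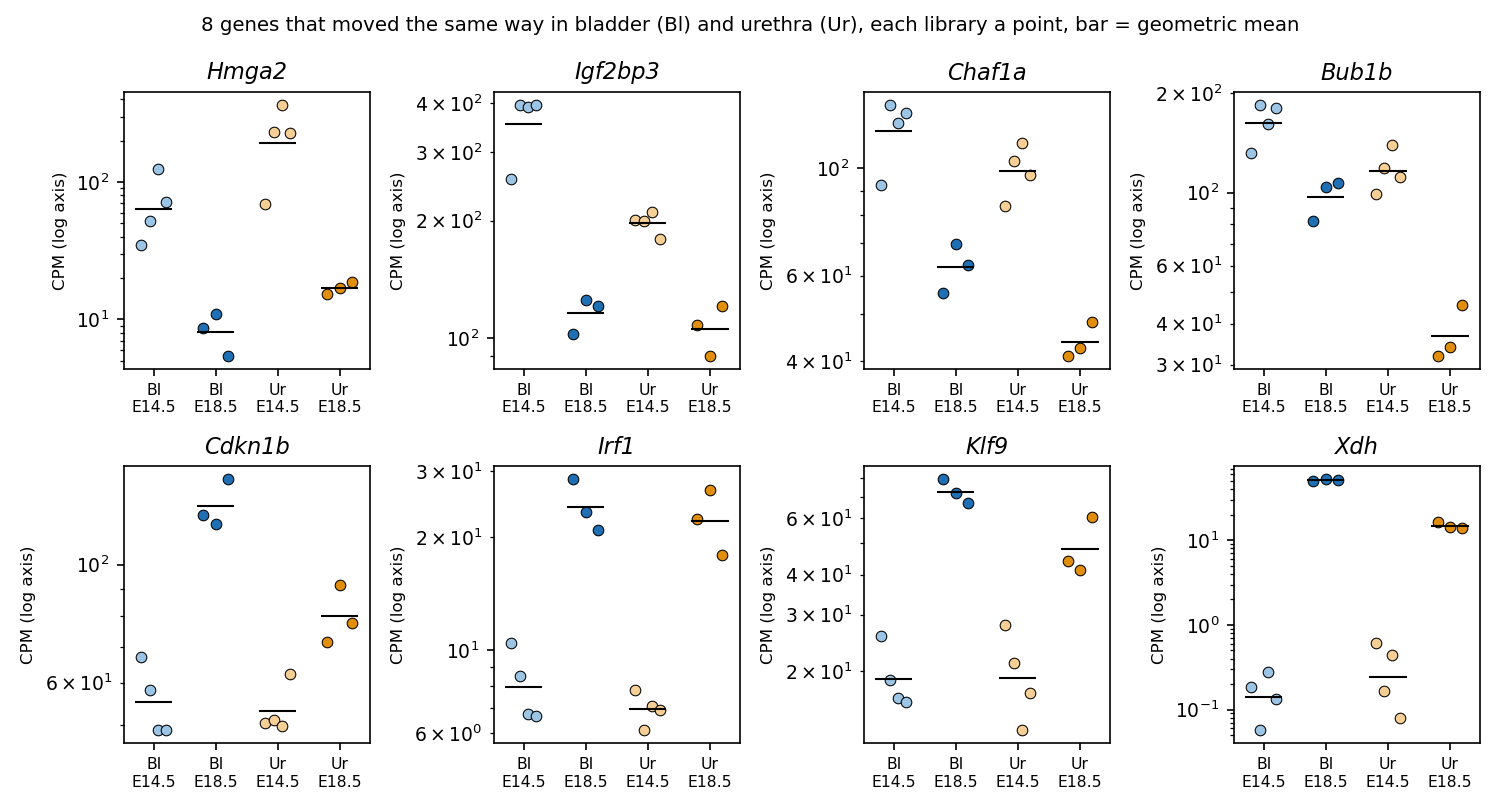
CPM (log axes) of 8 genes in each of the 14 libraries, with bars at the geometric mean of each group (Bl bladder, Ur urethra). Hmga2, Igf2bp3, Chaf1a and Bub1b were lower at E18.5 and Cdkn1b, Irf1, Klf9 and Xdh were higher, with no overlap between stages in either tissue.

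Of 14 uroplakin and superficial genes 11 were higher jointly, 11 in urethra, 2 in bladder and 2 (Krt20 and Krt18) in both tissues. Without both E14.5 replicate 1 libraries 14 were higher jointly and 8 in both tissues; the number higher in both was 8 with pan-epithelial scaling and 1 with the mesenchyme covariate. Krt20, the keratin of umbrella cells, was 31.04, 27.3, 5.48 and 36.5 CPM at E14.5 and 71.04, 186 and 229 CPM at E18.5 in bladder. In urethra it was 5.59, 2.75, 2.89 and 2.92 CPM at E14.5 and 27.4, 78.4 and 34.2 CPM at E18.5. Bladder E14.5 replicate 3 was the lowest of its group and urethra E14.5 replicate 1 the highest of its group. The change was 2.69 (SE 0.56, adjusted p = 0.00206) and 3.73 (SE 0.61, adjusted p = 0.000877). Upk1a, a tetraspanin of the umbrella cell plaque, was 529, 126, 107 and 83.3 CPM at E14.5 and 654, 595 and 665 CPM at E18.5 in urethra, where replicate 1 stood between the stages. Its urethra change was 1.59 (SE 0.51, adjusted p = 0.0299), or 2.60 without that library, and its bladder value was 0.83 (adjusted p = 0.213). The urethra call was lost in 6 of the 7 fits that left out a urethra library, all but the fit without E14.5 replicate 1.

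Klf4, a transcription factor of barrier epithelia, was the only 1 of 15 urothelial transcription factors higher in both tissues, a share near the 6.28% of all genes. In bladder 1 of the 15 was higher and 7 were lower, and in urethra 8 were higher and 0 lower. The list medians were -0.57 in bladder and 0.60 in urethra, and 2 members were called with opposite signs. Klf4 was 24.2, 23.5, 20.9 and 18.53 CPM at E14.5 and 180, 139 and 142 CPM at E18.5 in bladder. The levels in urethra were 29.1, 24.2, 23.3 and 25.4 CPM at E14.5 and 41.8, 50.7 and 49.2 CPM at E18.5. The change was larger in bladder, 2.82 (SE 0.13, adjusted p = 1.90e-07), than in urethra, 0.89 (SE 0.12, adjusted p = 0.000391) (interaction adjusted p = 9.13e-05).

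Of 15 basal genes 10 were higher and 1 lower jointly, and 3 were higher in both tissues (Itgb4, Lamb3, Col17a1), or 7 without both E14.5 replicate 1 libraries. The edgeR count higher in both was 3 with pan-epithelial scaling. With the mesenchyme covariate it was 0, or 6 at an unadjusted p under 0.05. Col17a1, the transmembrane collagen of hemidesmosomes, changed by 4.12 (SE 0.65, adjusted p = 0.000323) and 2.45 (SE 0.60, adjusted p = 0.00788), and by 5.02 and 3.05 without replicate 1 of the same tissue at E14.5. Krt5, the basal keratin, rose in bladder (3.12, SE 0.69, adjusted p = 0.00307, or 4.32 without E14.5 replicate 1), and in urethra its value was 0.701 (adjusted p = 0.447). Among 17 squamous genes 12 were higher jointly, 13 in urethra, 5 in bladder and 4 in both tissues, with medians of 0.86 in bladder and 3.34 in urethra; the number higher in both was 8 with pan-epithelial scaling and 1 with the mesenchyme covariate. Krt13, a keratin of internal stratified epithelia, was 0.161 to 5.502 CPM at E14.5 and 519 to 1114 CPM at E18.5 in urethra, a change of 8.93 (SE 0.89, adjusted p = 9.07e-05), and changed by 3.55 (SE 0.80, adjusted p = 0.00336) in bladder. It was 11.16 in urethra without E14.5 replicate 1 and 2.93 in bladder without E18.5 replicate 2.

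Mucosal defence genes were higher jointly in 16 of 20 and in both tissues in 5 (Ltf, Pigr, S100a6, Defb1 and Clu), with joint median 2.48; with the mesenchyme covariate these edgeR counts were 9 and 0, the latter 4 at an unadjusted p under 0.05. Clu, a secreted chaperone, changed by 2.595 (SE 0.42, adjusted p = 0.000383) and 3.43 (SE 0.43, adjusted p = 0.000231), or 2.83 in urethra without E18.5 replicate 2. Pigr, which carries IgA across epithelium, changed by 2.05 (SE 0.61, adjusted p = 0.01699) and 3.27 (SE 0.68, adjusted p = 0.00324), or 4.34 in urethra without E14.5 replicate 1; its bladder call was lost in 1 fit that left out a library. Complement and acute phase genes were higher jointly in 13 of 14 and in both tissues in 4 of 14 (C1ra, C3, Cd55, Cp).

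C3, the central complement component, was 0.497, 0.171, 0.598 and 0.0673 CPM at E14.5 and 80.7, 91.96 and 33.5 CPM at E18.5 in bladder. Urethral levels were 0.264, 0.164, 0.562 and 0.433 CPM at E14.5 and 7.05, 10.3 and 12.1 CPM at E18.5. It was below 1 CPM in all 8 E14.5 libraries and above 7 CPM in all 6 E18.5 libraries. The change was 7.73 (SE 0.56, adjusted p = 2.55e-06) and 4.76 (SE 0.53, adjusted p = 0.0001405), larger in bladder (interaction adjusted p = 0.0171). Cd55, which shields cells from complement, changed by 1.24 (SE 0.25, adjusted p = 0.00172) and 1.48 (SE 0.25, adjusted p = 0.00118).

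Of 19 glycolysis and hypoxia genes 9 were higher jointly and 4 in both tissues (Hk1, Pfkp, Vegfa, Ankrd37). Without both E14.5 replicate 1 libraries the counts were 15 and 10. The edgeR count higher in both was 3 with pan-epithelial scaling. With the mesenchyme covariate it was 1, or 8 at an unadjusted p under 0.05. Vegfa, the angiogenic factor, changed by 1.58 (SE 0.21, adjusted p = 9.43e-05) and 1.21 (SE 0.20, adjusted p = 0.00109), and Ankrd37, a hypoxia target, by 1.57 (SE 0.23, adjusted p = 0.000225) and 1.71 (SE 0.23, adjusted p = 0.000342). Pfkp, a phosphofructokinase, changed by 2.55 (SE 0.35, adjusted p = 0.000135) and 1.34 (SE 0.35, adjusted p = 0.0105). Of 18 detoxification genes 11 were higher jointly and 4 in both tissues. Adh7, which oxidises retinol and ethanol, changed by 4.304 (SE 0.56, adjusted p = 8.93e-05) and 3.42 (SE 0.55, adjusted p = 0.000809), or 4.29 in urethra without E14.5 replicate 1. Ces1d, a carboxylesterase, changed by -5.27 (SE 0.65, adjusted p = 6.07e-05) and -2.21 (SE 0.49, adjusted p = 0.00458), or -6.41 in bladder without E18.5 replicate 2. Of 18 cholesterol synthesis genes 1 passed jointly, with a list median of 0.08.

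The largest shared increases were taken among 707 genes of at least 5 CPM in the higher stage whose libraries were separate in each tissue, ranked by the smaller of the 2 tissue changes. The 12 were Ckm, Acta1, Clec3b, Xdh, Nupr1, C3, Kcnn4, Fabp4, P2rx1, Areg, Gda and Ly6a. These genes were chosen for size, so their values are a description.

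Xdh (chr17:73883895-73950196, GRCm38), the xanthine oxidoreductase that makes uric acid and reactive oxygen, was 0.186, 0.0569, 0.276 and 0.135 CPM at E14.5 and 50.6, 53.3 and 51.2 CPM at E18.5 in bladder. The urethral libraries held 0.616, 0.164, 0.442 and 0.0788 CPM at E14.5 and 16.4, 14.2 and 13.9 CPM at E18.5. It was under 1 CPM in every E14.5 library. The log2 change was 8.35 in bladder and 5.51 in urethra. Gda, guanine deaminase, acts upstream in the same purine breakdown route; it was 0.874 to 1.31 CPM at E14.5 and 17.9 to 27.4 CPM at E18.5 in bladder and 0.402 to 3.04 CPM at E14.5 and 26.8 to 30.9 CPM at E18.5 in urethra. Its change was 4.34 and 4.41, or 5.17 in urethra without E14.5 replicate 1.

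Areg, an EGF receptor ligand, was 0 to 0.342 CPM at E14.5 and 7.67 to 22.9 CPM at E18.5 in bladder and 0.315 to 2.77 CPM at E14.5 and 15 to 35.2 CPM at E18.5 in urethra; its change was 7.18 and 4.58, and 9.23 in bladder without E14.5 replicate 2 and 5.74 in urethra without E14.5 replicate 1. Nupr1, a stress-induced chromatin protein, changed by 6.19 and 5.41, and by 8.19 and 7.22 without E14.5 replicate 1 of that tissue. Kcnn4, a calcium-activated potassium channel, changed by 4.97 and 4.76, and by 9.47 and 6.06 without those libraries.

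Fabp4, a fatty acid carrier, was 93.95, 9.14, 2.72 and 9.01 CPM at E14.5 and 428, 877 and 953 CPM at E18.5 in bladder. In urethra it was 8.71, 0.246, 0.643 and 0.315 CPM at E14.5 and 20.9, 81.9 and 132 CPM at E18.5. Replicate 1 was the highest E14.5 library in each tissue, and without it the changes were 6.74 and 7.595 in place of 4.71 and 5.01; without urethra E18.5 replicate 3 the urethra value was 4.42. Ly6a, a surface protein induced by interferon, changed by 4.33 and 5.72, or 6.73 in urethra without E14.5 replicate 3. P2rx1, an ATP-gated channel best known in smooth muscle, changed by 6.97 and 4.61, or 5.25 in urethra without E14.5 replicate 3. Clec3b, a plasminogen-binding lectin, changed by 9.69 and 5.74, or 10.44 in bladder without E14.5 replicate 1 and 6.48 in urethra without E14.5 replicate 3.

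The largest shared decreases, chosen in the same way among 1242 genes, were Hbb-y, Hba-x, Hmga2, B4galnt2, Hapln1, Foxd2, Ces1d, Rprm, Trim71, Palm3, Tdrd1 and Sept3. Foxd2, a forkhead factor, was 13.2, 19.5, 20.4 and 18.2 CPM at E14.5 and 1.48, 3.12 and 3.49 CPM at E18.5 in bladder. The levels in urethra were 6.78, 12.3, 14.4 and 11.7 CPM at E14.5 and 2.95, 2.15 and 2.13 CPM at E18.5. The stages were separate, and the change was -2.72 and -2.23. B4galnt2, a glycosyltransferase of intestinal glycans, changed by -2.56 and -2.94. Palm3, a paralemmin family member, changed by -3.65 and -1.87. Tdrd1, a tudor domain protein known from the germline piRNA pathway, changed by -2.79 and -1.84. Rprm, an inhibitor of the cell cycle, changed by -2.17 and -2.29, or -1.66 in urethra without E14.5 replicate 3. Hapln1, a hyaluronan link protein, changed by -2.698 and -2.34, and Sept3, a septin, by -1.74 and -2.22. The urethra call of Hapln1 was lost in 2 fits that left out a library.

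Hbb-y and Hba-x are the embryonic globins of primitive red cells. Hbb-y was 3.72, 12.01, 145 and 27.7 CPM at E14.5 and 0, 0 and 0.197 CPM at E18.5 in bladder. Urethral levels were 2.02, 49.8, 249 and 74.2 CPM at E14.5 and 0.0855, 0.118 and 0 CPM at E18.5. E18.5 libraries held almost none, and the E14.5 libraries differed widely, with replicate 3 the highest and replicate 1 the lowest in both tissues. Hba-x was 1.49 to 20.2 CPM at E14.5 and 0 to 0.0762 CPM at E18.5 in bladder and 0.616 to 38.9 CPM at E14.5 and 0 to 0.0559 CPM at E18.5 in urethra. Across the 10 erythroid markers tested, 1 was higher and 4 were lower jointly; the summed level ran from 178 to 813 CPM to 880 to 1290 in bladder, and from 250 to 1030 to 239 to 517 in urethra. The share of these globins that came from blood left on the tissue was not tested.

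Some genes of the signalling lists moved the same way in both tissues. Of all genes tested, 6.28% were higher in both and 8.07% lower in both. Tgfb1, a ligand of the TGF-beta pathway, changed by 2.33 (SE 0.25, adjusted p = 2.66e-05) in bladder and 1.53 (SE 0.25, adjusted p = 0.0008803) in urethra, and Bmp2, a BMP ligand, by 2.05 (SE 0.30, adjusted p = 0.000197) and 1.26 (SE 0.30, adjusted p = 0.00751); of 18 genes in that list 5 were higher and 1 lower jointly and 3 higher in both. With pan-epithelial scaling the edgeR count higher in both was 0, also at an unadjusted p under 0.05. Rnf43, a ubiquitin ligase that removes Wnt receptors, was lower, at -1.23 (SE 0.17, adjusted p = 0.000144) and -0.74 (SE 0.17, adjusted p = 0.00491); with Znrf3, its paralog, it was 1 of 2 among 23 Wnt genes lower in both tissues, a share near the 8.07% of all genes, while 5 were called with opposite signs. Fgf7, a ligand made by mesenchyme that acts on epithelium, was higher, at 4.76 (SE 0.57, adjusted p = 5.46e-05) (5.63 without E14.5 replicate 1) and 2.11 (SE 0.53, adjusted p = 0.008895). Hoxa11 changed by 1.05 (SE 0.14, adjusted p = 9.33e-05) and 0.62 (SE 0.14, adjusted p = 0.00454), against 6 of 14 posterior Hox genes lower jointly; its urethra value was -0.078 with pan-epithelial scaling. Cftr, the chloride channel, changed by -2.03 (SE 0.19, adjusted p = 1.08e-05) and -1.21 (SE 0.18, adjusted p = 0.000582).

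Cftr was 19.2, 25.7, 26.98 and 27.04 CPM at E14.5 and 5.05, 6.25 and 6.84 CPM at E18.5 in bladder. The urethral libraries held 25.8, 20.8, 25.3 and 19.8 CPM at E14.5 and 11.4, 7.73 and 10.6 CPM at E18.5. The stages did not overlap, and replicate 1 was the lowest E14.5 library in bladder. It was 1 of 2 members of the 21 water and ion transport genes lower jointly, where 10 were higher.

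Some markers of smooth muscle and of skeletal muscle also rose in both tissues, where 6.28% of all genes tested did. Of the endothelial, neuron and glia, duct and erythroid markers, 0 were higher in both. Smooth muscle markers were higher jointly in 8 of 10 and in both tissues in 6 of 10 (Tagln, Cnn1, Des, Actg2, Smtn, Lmod1). Their summed level went from 264 to 620 CPM to 5040 to 13200 in bladder, and from 476 to 682 to 1030 to 2330 in urethra. With the mesenchyme covariate 8 were higher jointly and 0 in both tissues by edgeR, or 6 at an unadjusted p under 0.05. Actg2, the enteric smooth muscle actin, was 39.7, 6.61, 40.3 and 6.56 CPM at E14.5 and 2710, 2415 and 975 CPM at E18.5 in bladder. In urethra it was 46.9, 23.2, 37.2 and 27.4 CPM at E14.5 and 164, 515 and 357 CPM at E18.5. The change was 6.45 (SE 0.75, adjusted p = 4.50e-05) and 3.36 (SE 0.66, adjusted p = 0.00248). Des, an intermediate filament of muscle, changed by 6.76 (SE 0.72, adjusted p = 2.57e-05) and 3.09 (SE 0.62, adjusted p = 0.00284), or 2.48 in urethra without E18.5 replicate 2.

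Skeletal muscle markers were higher jointly in 8 of 12 and in both tissues in 4 of 12. In urethra 11 of 12 were higher, and in bladder only the shared 4 (Myh8, Ckm, Tnnt3 and Acta1), with medians of 3.01 and 0.80. Their summed level was 5.01 to 13.3 CPM at E14.5 and 547 to 1740 at E18.5 in bladder, and 6.03 to 62.1 and 294 to 574 in urethra. Ckm, muscle creatine kinase, was 0.186, 0.0569, 0.0921 and 0 CPM at E14.5 and 224, 146 and 69.99 CPM at E18.5 in bladder. The levels in urethra were 0.264, 0, 0 and 0 CPM at E14.5 and 18.98, 39.3 and 29.4 CPM at E18.5. Its E14.5 libraries held few or no counts, so the fitted change (10.69 in bladder, 8.78 in urethra; 11.49 and 12.64 without E14.5 replicate 1 of that tissue) depends on them. Acta1 changed by 8.92 and 5.88 (11.27 and 7.06 without those libraries) and Tnnt3 by 6.88 and 3.599. Acta1 and Ckm made up most of the summed level in E18.5 bladder. The muscle regulators Myod1 and Myog and the light chain Mylpf were not higher there: their bladder values were -2.74 (adjusted p = 0.0507), -1.26 (adjusted p = 0.233) and -0.09 (adjusted p = 0.911), against 1.84 (adjusted p = 0.0609), 2.45 (adjusted p = 0.0154) and 2.86 (adjusted p = 0.001398) in urethra.

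Mesenchyme markers were shared in 1 case only. Of 15, 9 were higher jointly, 1 (Dcn) was higher in both tissues and 1 was called with opposite signs; the medians were 3.31 in bladder and -0.23 in urethra. Col1a1, the main fibrillar collagen, was 3.31 (SE 0.48, adjusted p = 0.000192) in bladder and 0.71 in urethra (adjusted p = 0.255). Endothelial markers were higher jointly in 3 of 10, with medians of 2.21 in bladder and -0.53 in urethra. Neuron and glia markers were higher jointly in 1 of 13 and lower in 1. Dissociation and stress genes were higher jointly in 12 of 16, lower in 2 and higher in both tissues in 2 (Atf3 and Ier3), at summed levels of 932 to 1260 and 1000 to 1230 CPM in bladder and 1130 to 1290 and 1210 to 1410 in urethra; with pan-epithelial scaling 7 were higher in both. Of 10 genes of RNA quality and nuclear RNA, 5 were higher and 1 lower jointly and 1 (Hist1h1c) was higher in both tissues, with a joint median of 0.56. Their summed level was 437 to 963 CPM at E14.5 and 735 to 1370 at E18.5 in bladder, and 665 to 1360 and 1050 to 2290 in urethra. The part of these lists in the stage changes was not tested.

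A shared direction did not mean a shared size. Of the 1149 genes higher in both tissues 212 also passed the interaction test, 183 with the larger rise in bladder and 29 with the larger rise in urethra. Of the 1475 lower in both 106 passed it, 71 with the larger fall in bladder and 35 in urethra. Across all genes 22.9% passed the interaction test. Of the 402 genes with opposite signs, 185 rose in bladder and fell in urethra and 217 did the reverse.

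Ptch1, the Hedgehog receptor and a target of the pathway, was 66.7, 80.3, 94.97 and 109 CPM at E14.5 and 354, 280 and 246 CPM at E18.5 in bladder. Urethral levels were 166, 315, 347 and 317 CPM at E14.5 and 118, 87.5 and 122 CPM at E18.5. It rose in bladder (1.74, SE 0.24, adjusted p = 0.000129) and fell in urethra (-1.39, SE 0.25, adjusted p = 0.00145). Notum, a secreted Wnt inhibitor, also rose in bladder (3.82, SE 0.53, adjusted p = 0.000148) and fell in urethra (-2.16, SE 0.53, adjusted p = 0.00833). Vil1, a brush border protein, fell in bladder (-1.87, SE 0.45, adjusted p = 0.00502) and rose in urethra (4.81, SE 0.44, adjusted p = 5.73e-05). Without E14.5 replicate 1 the urethra value of Vil1 was 5.45. Slc26a9, a chloride transporter, fell in bladder (-4.399, SE 0.66, adjusted p = 0.000248, or -5.08 without E18.5 replicate 1) and rose in urethra (4.16, SE 0.60, adjusted p = 0.000438). For Notum in urethra, E14.5 replicate 1 was 2.95 CPM, within the E18.5 range of 2.83 to 3.91 CPM, and the other E14.5 libraries were 17.5 to 21.2 CPM. Ptch1, Notum, Vil1 and Slc26a9 had interaction adjusted p of 0.0002404, 0.000555, 0.000122 and 0.000209.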

How the data were processed

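Raw read counts per gene were deposited by the authors in 1 table per stage, with 55228 genes in each, and were joined on the gene name. Per the submitters' processing notes, reads were aligned with HISAT2 2.2.1 to GRCm38 and handled with SAMtools 1.9; the sources used here do not name the counting tool or its strand setting. Libraries were poly(A)-selected, directional and read as 100 bp pairs, per the labels. Of low counts (under 20), 63.9% to 68.6% were even, so both mates of a pair appear to have been counted, and counting error is larger than the totals imply.

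Counts were analysed in R 4.3.3 with edgeR 4.0.16 (TMM scaling, filterByExpr by group, 4 group means over 14 libraries, quasi-likelihood F test, Benjamini-Hochberg over 18286 genes, threshold 0.05). The joint contrast weighs the tissues equally. CPM use TMM library sizes. Fold changes are log2. Errors are standard errors. Named genes were the 12 largest same-way changes in each direction, up to 3 members per list by joint adjusted p, a fixed panel, and the largest opposite changes; genes outside these were chosen after their values were seen. Members, lists and tests were chosen with earlier results of these data known. The labels give 4 litters at E14.5 in one place and 3 in another. Alternatives used DESeq2 1.42.0 and limma 3.58.1.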

Additional observations from a re-analysis of the deposited data

Results flagged for a closer look

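Of the 92 genes named with values, Dicer1 and Drosha were left out here. The E18.5 groups of 3 libraries were not examined either. In the E14.5 groups of 4, a library far from the other 3 was searched for by Dixon's ratio. It marked 26 of 180 gene and group pairs, and chance marks about 1 in 20. E14.5 replicate 1 was the library set apart in 10 of these in bladder and in 11 in urethra. The lowest E14.5 library in bladder was replicate 1 for Igf2bp1 at 70.3 CPM (others 119 to 127), Igf2bp3 at 256 CPM (others 391 to 396), Foxm1 at 68.9 CPM (others 95.6 to 99.2) and Cbx2 at 29.6 CPM (others 57.6 to 63.6). In bladder it was replicate 1 also for Cftr at 19.2 CPM (others 25.7 to 27.04), Ces1d at 4.75 CPM (others 9.11 to 10.2), B4galnt2 at 37.2 CPM (others 69.2 to 76.04) and Hapln1 at 14.5 CPM (others 58.5 to 71.7). The highest E14.5 library in bladder was replicate 1 for Clu at 27.5 CPM (others 12.1 to 12.9) and Cd55 at 45.8 CPM (others 32.6 to 33.3). The lowest E14.5 library in urethra was replicate 1 for Ezh2 at 113 CPM (others 147 to 154), Cbx2 at 76.7 CPM (others 112 to 113), Ptch1 at 166 CPM (others 315 to 347) and Notum at 2.95 CPM (others 17.5 to 21.2). The highest E14.5 library in urethra was replicate 1 for Cdkn1a at 94.6 CPM (others 30.3 to 34.8), Gadd45b at 14.7 CPM (others 5.302 to 6.15), Krt20 at 5.59 CPM (others 2.75 to 2.92) and Adh7 at 5.19 CPM (others 1.15 to 1.22). In urethra it was replicate 1 also for Pfkp at 40.9 CPM (others 15.4 to 15.8), Nupr1 at 9.46 CPM (others 0.643 to 0.984) and Ckm at 0.264 CPM (others 0). The highest E14.5 library in urethra was replicate 4 for Cdkn1b at 62.3 CPM (others 49.7 to 50.9). The lowest E14.5 library in bladder was replicate 3 for Krt20 at 5.48 CPM (others 27.3 to 36.5) and Tnnt3 at 0.04603 CPM (others 0.399 to 0.5897). The lowest E14.5 library in urethra was replicate 3 for Tdrd1 at 6.95 CPM (others 11.2 to 12.3) and Rnf43 at 85.95 CPM (others 121 to 125).

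For 36 of the named genes the stage change differed between the tissues by the interaction test in edgeR (adjusted p under 0.05). These include genes named for their opposite changes, and Dicer1 and Drosha were not checked. Across all genes 22.9% passed this test. The differences are log2 values for bladder minus urethra. Among genes higher at E18.5 in both tissues the difference was 0.62 for Cdkn1b, 2.95 for Isg15, 1.197 for B2m, 2.83 for Ifitm3, 2.57 for Cebpd and -1.14 for Sgk1. In the same group the difference was 1.93 for Klf4, -5.38 for Krt13, 2.97 for C3, 2.83 for Xdh, 3.95 for Clec3b and 2.65 for Fgf7. In the same group the difference was 3.67 for Des, 3.09 for Actg2 and 3.28 for Tnnt3. Among genes lower in both tissues the difference was 2.42 for Lin28b, -0.51 for Igf2bp2, -0.73 for Igf2bp3, 0.82 for Pole, 0.91 for Bub1b and 0.93 for Foxm1. In the same group the difference was 0.92 for Cenpf, -0.82 for Cftr, -3.06 for Ces1d and -1.79 for Palm3. Among genes with opposite signs the difference was 3.14 for Ptch1, 5.98 for Notum, -6.69 for Vil1 and -8.56 for Slc26a9. Among genes that passed in 1 tissue the difference was 1.11 for Mki67, 1.17 for Top2a, -0.85 for Ezh1, 1.35 for Igf2, 2.600 for Col1a1 and 2.56 for Tsc22d3. In the same group the difference was 1.17 for Fkbp5.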

How the results depend on the processing

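Counts of genes higher and lower in both tissues were within 1.5 times the reported counts with DESeq2 (1388 and 1665), DESeq2 size factors, no filter, a filter of 1 CPM in 3 libraries, limma voom, and each tissue fitted alone. With pan-epithelial scaling the counts higher and lower were 2725 and 2653 jointly, 6001 and 303 in bladder, 1055 and 8921 in urethra and 640 and 180 in both, with 1708 opposite. With the mesenchyme covariate 2622 were higher jointly, 189 higher and 331 lower in bladder, and 136 and 209 in both, with 20 opposite. The urethra counts in that fit stayed near the reported ones, at 3506 higher and 3107 lower. With a log2 fold change of at least 1 added the counts were 2144 and 569 jointly, 643 lower in bladder, 1647 and 920 in urethra, 657 and 143 in both, and 141 opposite. Without both E14.5 replicate 1 libraries, a setting chosen after seeing the data, 819 were opposite. Why the counts moved was not tested; the fold threshold calls fewer genes by construction.

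With 1 library left out at a time, genes higher and lower ranged from 3910 to 4860 and 3397 to 4225 jointly, 2921 to 3974 and 2817 to 4037 in bladder, 2226 to 3970 and 1693 to 3290 in urethra, and 835 to 1449 and 916 to 1648 in both; opposite genes ranged from 190 (without urethra E18.5 replicate 1) to 901. Sign reversals occurred with pan-epithelial scaling for B2m (-0.28), Cdkn1b (-0.18), Col1a1 (-0.19) and Hoxa11 (-0.078) in urethra and for Foxm1 (0.023), Mki67 (0.16) and Top2a (0.22) in bladder, and with the mesenchyme covariate for Mki67 in bladder (0.068); the cause was not tested.

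Same-numbered bladder and urethra libraries had correlated deviations of 0.15, 0.13, 0.39 and -0.10 at E14.5 and 0.14, -0.15 and -0.19 at E18.5, so not every pair was over 0.1, and the labels do not say that a number marks a litter. A fit with the replicate number as a block, which also joins different litters across stages, gave 865 genes higher and 1111 lower in both tissues and 265 opposite. With stage and number together as a correlated block in limma voom (consensus correlation 0.097) these counts were 1324, 1474 and 449. Depth was at least 21101269 counts in each library; genes near the filter, such as Lin28b, are measured least precisely.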

Other observations

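Matrix and basement membrane genes were higher jointly in 17 of 18, yet 2 (Col14a1 and Eln) were higher in both tissues; the list medians were 3.06 in bladder and 0.48 in urethra. Tight junction genes were called with opposite signs in 4 of 18, with medians of -0.37 in bladder and 0.61 in urethra. Nephric and Mullerian duct markers were lower jointly in 4 of 11, with medians of 0.48 in bladder and -3.57 in urethra, at summed levels in urethra of 223 to 571 CPM at E14.5 and 182 to 240 at E18.5. Nuclear-encoded respiratory subunits had a joint median of 0.00, with 8 of 20 higher and 4 lower.

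Dicer1 and Drosha, the nucleases that process microRNA precursors, were picked after their values were seen. Dicer1 had a joint log2 fold change of -0.74 (SE 0.09, adjusted p = 3.99e-05) and Drosha of -0.81 (SE 0.10, adjusted p = 5.21e-05) by edgeR. In bladder the values were -1.003 and -0.81, and in urethra -0.48 and -0.799. The urethra call of Dicer1 was lost in 1 of the 7 fits that left out a urethra library.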
